A study of Mus musculus with 3 samples.

Results

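Conventional dendritic cells (cDCs) of the mouse meninges made up 214 of the 7057 cells kept from 3 single-cell libraries. A barcode was kept as a cell when it held at least 500 unique molecular identifiers (UMIs, each one captured RNA molecule), a number of genes within the bounds of the study's methods and under 8.3% mitochondrial UMIs. A kept cell was called a cDC on 4 criteria read from its own UMIs. H2-Aa, H2-Ab1, H2-Eb1 and Cd74, the class II presentation genes, had to take at least 2% of them, the B cell receptor genes Cd79a and Cd79b under 0.1%, and the macrophage genes Pf4, Mrc1, Ms4a7, Dab2 and Cbr2 under 0.3%. At least 2 of 10 dendritic cell genes (Flt3, Cd209a, Xcr1, Clec9a, Ccr7, Itgax, Mgl2, Clec10a, Ccl17 and Ifi205) had to be detected. The members were thus chosen by the measured levels of these genes, so those levels in cDCs are given as a description.

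The study asked how chronic social defeat (CSD) stress alters immune cells of the meninges. Singlets that excluded DAPI and took up the nuclear dye DRAQ5 were sorted from dissected meninges and loaded on a 10x Genomics droplet chip. The 2 home cage (HC) libraries and the single CSD library each pooled 4 male C57BL/6J mice aged 10 to 12 weeks and each took its own chip lane, so lane and condition cannot be told apart in the CSD library. HC mice were unstressed, and CSD mice had 14 days of defeat by an aggressor and were taken as stress-susceptible. HC replicate 1 held 9891861 UMIs in all barcodes, HC replicate 2 held 8814690 and CSD replicate 1 held 10206236. HC replicate 2 stood apart in its droplets: barcodes of at most 100 UMIs carried 24.1% of its UMIs, against 7.87% in HC replicate 1 and 5.48% in CSD replicate 1. No barcode sequence was shared among cDCs of different libraries, and 1 was shared with another kept cell.

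Dendritic cells take up material in a tissue, cut it to peptides and show those peptides to T cells on MHC molecules. The cDC1 branch, which depends on Batf3 and Irf8, carries Xcr1 and Clec9a and is known for cross-presentation on class I, whereas the cDC2 branch, which uses Irf4, carries lectins such as Cd209a, Mgl2 and Clec10a and is known for presentation on class II. On maturation either branch turns on Ccr7 and travels along lymphatics to lymph nodes, and in the meninges dendritic cells lie mostly in the dura, near the venous sinuses and the lymphatic vessels.

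The first HC pool gave 123 cDCs, the second 45 and the CSD pool 46, and sets of 3 values below keep this order. They held more UMIs per cell than the rest, with a median of 5578.5 UMIs and 1646 genes against a median of 2352 UMIs in other kept cells. The median of UMIs per cDC was 5650, 5762 and 5298.5, so depth per cell was close across libraries. Summed over cells, the cDC profile rested on 696136, 267585 and 246063 UMIs in the same order. Levels are given as UMIs of a gene per 1000000 UMIs of these sums (CPM).

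The edges of the selection were populated unevenly. The 3 cells nearest to the class II floor from above had 2.00%, 2.01% and 2.02% of their UMIs in the 4 genes, and the nearest below, which met every other criterion, had 1.90%. Only the class II floor kept out 187 cells, only the count of dendritic cell genes 306, only the macrophage ceiling 17 and only the B cell ceiling 15. Of the 214 cDCs, 89 had 2 of the 10 dendritic cell genes, 71 had 3, 42 had 4, 8 had 5, 3 had 6 and 1 had 7.

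The 5 markers of the label are among the genes that chose the cells, so their levels describe the selection and do not check it. Cd209a, a lectin of cDC2, stood at 816 and 1005 CPM in the HC libraries and at 516 in CSD. In T or NK cells, which should lack it, Cd209a stood at 4.60, 20.6 and 9.95 CPM, and in class II B cells at 25.9, 51.0 and 34.0. Cd209a was detected in 90 of 123, 33 of 45 and 30 of 46 cDCs, and in 2 of 171, 5 of 128 and 4 of 209 T or NK cells, whose median depth was lower (2172, 2453 and 2015 UMIs). With each cell thinned to 500 UMIs it was detected in 33, 20 and 9 cDCs and in 1, 1 and 0 T or NK cells. Mgl2, a galactose-binding lectin, stood at 526, 467 and 479.6 CPM in cDCs. Mgl2 was not particular to cDCs, since class II macrophages held it at 514, 1143 and 755 CPM. Flt3, the receptor for the growth factor on which cDCs depend, was sparse in cDCs (27.3, 33.6 and 44.7 CPM) and sparser in T or NK cells (0, 0 and 1.99 CPM). Xcr1, the chemokine receptor of cDC1, stood at 24.4, 41.1 and 61.0 CPM in cDCs and had no UMI in class II B cells or class II macrophages of any library. Ccl17, a chemokine that attracts T cells, stood at 459.7, 2093 and 662 CPM, with HC replicate 2 far above the others. Zbtb46, a transcription factor of cDCs outside the rule, was found at 17.2, 11.2 and 16.3 CPM in cDCs, against 2.30, 0 and 1.99 in T or NK cells. Of the transcription factors of the branches, Batf3 stood at 90.5, 89.7 and 65.0 CPM in cDCs. Irf4 stood at 21.6, 29.9 and 0 CPM on 15, 8 and 0 UMIs, counts too low to show that it was absent in CSD.

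**Figure D1:**
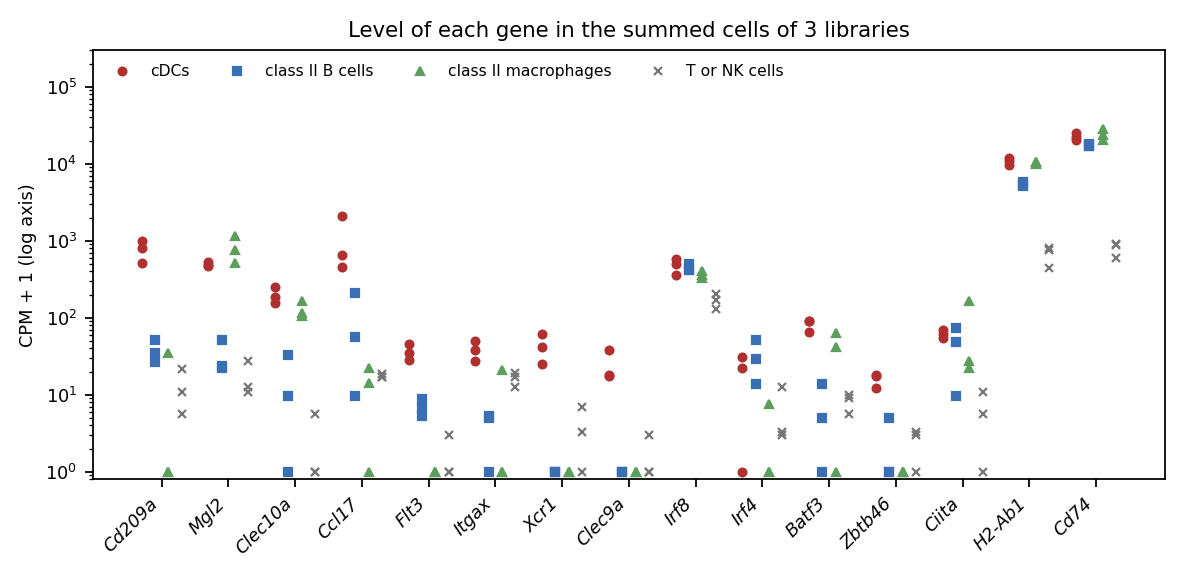
Level of dendritic cell genes in each cell type, on a log axis of CPM plus 1, with 1 point per library, so that a point at 1 is a CPM of 0. Cd209a, Flt3 and Xcr1 stand highest in cDCs, Mgl2 is as high in class II macrophages, and HC replicate 2 macrophages rest on 2 cells.

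Sets of markers divided the cDCs unequally. Cd209a, Mgl2 or Clec10a was detected in 186 of the 214 cells and Xcr1 or Clec9a in 36, of which 13 had both kinds. Cells with Xcr1 or Clec9a numbered 18, 8 and 10 in the 3 libraries, and cells with a cDC2 lectin 109, 40 and 37. Ccr7, the receptor of migrating dendritic cells, was detected in only 8 cDCs and stood at 28.7, 44.8 and 20.3 CPM. Class II B cells held more of it, at 177, 208 and 147 CPM. T or NK genes took at least 0.2% of UMIs in 7 cDCs and plasmacytoid dendritic cell genes did so in 2.

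Class II genes, which chose the cells, were abundant in them and also in the other presenting cells. H2-Ab1, a beta chain of class II, stood at 10844 and 11921 CPM in the HC libraries and at 9567 in CSD. Class II macrophages held similar levels (10462, 10614 and 10049.7 CPM) and class II B cells 5294, 5829 and 5123. Cd74, the invariant chain that guides class II to the endosome, stood at 22557, 25065 and 20604 CPM in cDCs. Ciita, the transactivator that switches on class II genes, was not used to choose the cells and stood at 67.5, 59.8 and 52.8 CPM, against 8.63, 47.1 and 73.6 in class II B cells and 4.60, 0 and 9.95 in T or NK cells.

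Class II genes share a promoter layout in which a CCAAT element, the Y box bound by NF-Y, sits just upstream of the start. The 130 bases before each start were therefore searched for TGATTGG on either strand (its reverse complement is CCAATCA). It was found in 8 of the 15 genes of the class II list that had a RefSeq window on GRCm38.p6, the build that mm10 denotes, and in 1756 of 32851 windows of all genes (5.35%). The 8 of 15 counts genes, some of which had several windows, whereas the 5.35% counts windows, so they are not the same kind of share. The 8 include Rfx5, with 2 matches on the reverse strand, while the others matched on the forward strand. A match is a description of the letters and not a measured site. Shown here, 5′ to 3′ on the gene's strand with TGATTGG in capitals, are 2 genes that chose the cells, H2-Aa (chr17:34287824-34287953, minus strand) and H2-Eb1 (chr17:34305737-34305866, plus strand). With them are 2 genes of the peptide-loading machinery that did not, H2-DMb1 (chr17:34153061-34153190, plus strand) and H2-Ob (chr17:34238775-34238904, plus strand). All 4 windows lie upstream of the annotated first exon, and the capitals begin 50, 61, 63 and 59 bases before the start in that order.
H2-Aa: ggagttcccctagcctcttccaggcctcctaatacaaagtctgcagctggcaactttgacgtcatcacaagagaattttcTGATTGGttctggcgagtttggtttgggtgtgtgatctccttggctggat
H2-Eb1: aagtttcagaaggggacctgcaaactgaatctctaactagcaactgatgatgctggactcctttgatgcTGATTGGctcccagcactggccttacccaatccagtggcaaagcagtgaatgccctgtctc
H2-DMb1: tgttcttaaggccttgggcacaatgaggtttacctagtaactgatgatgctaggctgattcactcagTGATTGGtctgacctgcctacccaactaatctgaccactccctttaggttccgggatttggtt
H2-Ob: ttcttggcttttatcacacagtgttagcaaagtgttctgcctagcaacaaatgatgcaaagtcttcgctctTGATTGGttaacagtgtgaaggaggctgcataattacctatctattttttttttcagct
All 4 genes lie in the MHC region of chromosome 17. H2-Ab1 and Ciita had no window.

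Outside the rule, the 5 genes with the highest ratio of cDCs to all other kept cells, among genes seen in over 15% of cDCs, were as follows. Tnip3, an inhibitor of NF-kappaB signalling, stood at 265 CPM in cDCs and 7.82 in other kept cells, a ratio of 33.8. By library it was at 263, 344 and 183 CPM, and it was detected in 50.9% of cDCs against 1.86% of other kept cells. Hepacam2 had a ratio of 12.5, Bcl2a1d, a survival gene of the Bcl2 family, 12.0, Ciita 11.1 and Tnfsf9, the ligand of the costimulatory receptor 4-1BB, 10.5. These ratios come from the cells the rule chose and carry no test.

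The cDCs were not uniform, and Leiden clustering divided them into 7 subclusters of 7 to 42 cells. Subcluster 4 (33 cells) was cDC1-like, with 7 of the cDC1 markers among its 10 leading genes. It held Xcr1 at 188 CPM, Clec9a at 82.7 and Irf8 at 1696, and Cd209a only at 51.4. Subcluster 3 (34 cells) was called cDC2-like from 3 cDC2 markers among its leading genes. The cDC2 markers summed to 6947 CPM there, of which Ccl17 alone was 3736. They summed to 2743, 3130 and 3050 CPM in subclusters 1, 2 and 6, so cDC2 markers were not particular to subcluster 3. It held Ccl22, a chemokine with the same receptor as Ccl17, at 303 CPM. Cd83, a gene of activated dendritic cells, stood at 221 there and Ccr7 at 169. At a resolution of 2, genes that included Ccl22, Ccl17 and Ccr7 led a separate group of 9 cells.

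Other subclusters stayed unnamed. Subcluster 1 (42 cells) was led by genes that included Klrd1 and Dusp2 and held all 4 cDCs that the doublet caller Scrublet marked. The automatic threshold of Scrublet marked 1.92% and 0.94% of kept cells in the HC libraries. In CSD it marked 0.109%, so the 5.1% of cells with the highest score were marked there instead. Subcluster 2 (39 cells) was led by genes that included Mgl2, Klrb1b and Ear2. Subcluster 5 (32 cells) was led by genes of macrophages, with Apoe at 16851 CPM and C1qa at 4101. Subcluster 6 (27 cells) was led by genes that included the T cell receptor component Cd3g (357 CPM) and the cytotoxic granule gene Nkg7 (675 CPM), at a median of 6351 UMIs per cell. Subcluster 7 (7 cells) was led by interferon-stimulated genes, with Ifit3 at 1149 CPM, Isg15 at 1672 and Irf7 at 1097. Macrophage-gene and T cell-gene subclusters together held 59 of the 214 cells and count as cDCs by the rule alone.

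Each library contributed to most subclusters. The cDC1-like cells numbered 16 of 123, 5 of 45 and 12 of 46, and the cDC2-like cells of subcluster 3 numbered 17, 15 and 2. Subcluster 5 held 25, 3 and 4 cells and subcluster 6 held 8, 10 and 9. Genes that define these subclusters also differ between libraries, so their sizes are not compared between HC and CSD.

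**Figure D2:**
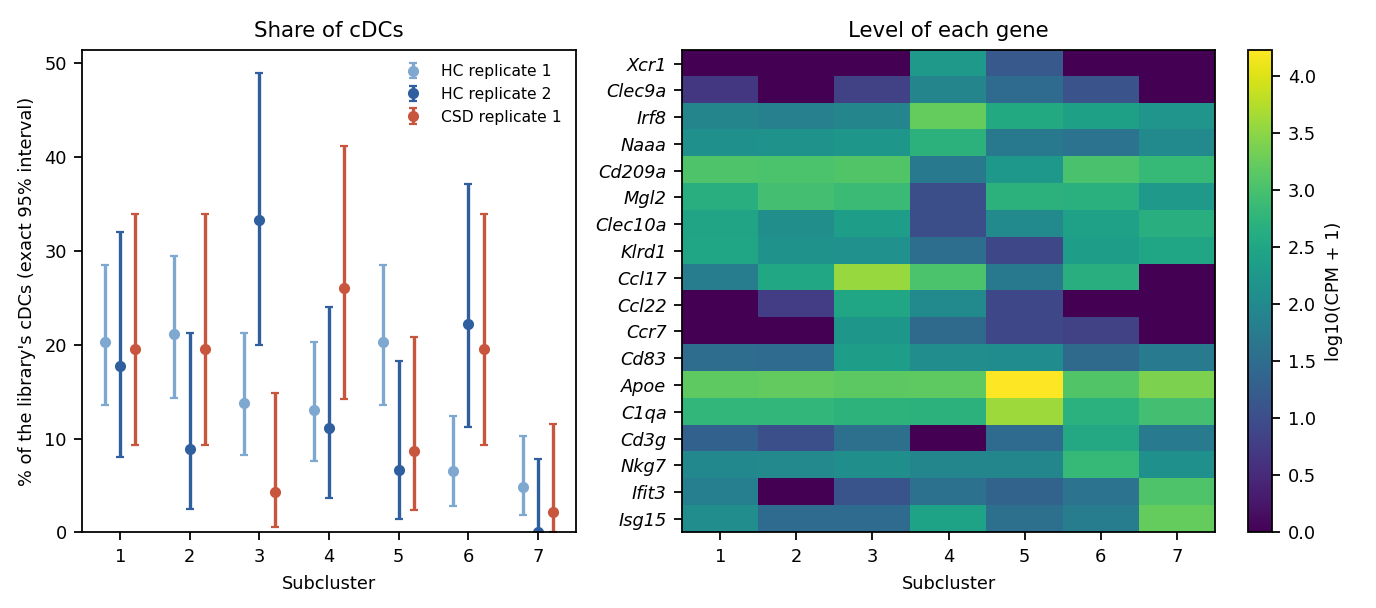
Left, share of each library's cDCs in the 7 subclusters, in percent, with exact 95% intervals for counting error, and right, the level of 18 genes in each subcluster as log10 of CPM plus 1. The shares are a description and vary between the HC libraries too (13.8% and 33.3% in subcluster 3), and Xcr1 and Irf8 are highest in subcluster 4, Ccl17 in 3 and Apoe in 5.

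Among all kept cells, cDCs were less frequent in CSD than in either HC library. They took 4.73% of kept cells in HC replicate 1 (95% exact Clopper-Pearson interval 3.95 to 5.62, 123 of 2599), 2.64% in HC replicate 2 (1.93 to 3.52, 45 of 1702) and 1.67% in CSD replicate 1 (1.22 to 2.22, 46 of 2756). The HC mean was 3.69% ± 1.48 (SD, n = 2) and CSD lay 2.02 points under it, while the HC libraries differed by 2.09 points. The intervals of HC replicate 2 and CSD overlapped. With 1 library against 2 there are 3 splits, so no permutation test can go below a one-sided p of 0.333 and none was run. These intervals reflect the sampling of cells and leave out how pools of mice vary.

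A share also moves with the number of other cells in a library. Counted among the kept cells in which 7 neutrophil genes took under 8% of UMIs, an alternative chosen after seeing the data, cDCs made up 7.02%, 4.19% and 3.40%. Without subclusters 5 and 6 they made up 3.46%, 1.88% and 1.20% of kept cells. The order of the libraries was the same under both.

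**Figure D3:**
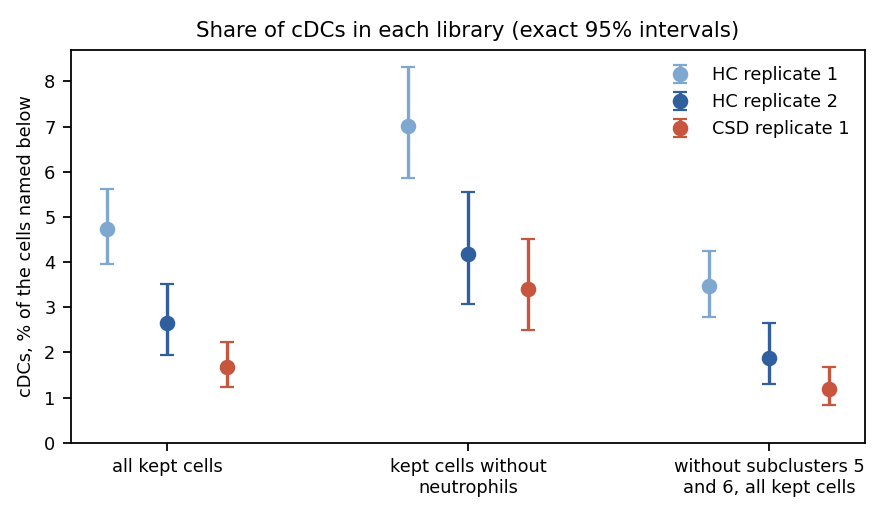
Share of kept cells called cDCs in each library, in percent, with exact 95% intervals for counting error, for all kept cells, for kept cells without neutrophils and without subclusters 5 and 6. CSD replicate 1 is lowest at 1.67%, and the gap between the HC libraries (4.73% and 2.64%) is as large as the gap between CSD and the HC mean.

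RNA of neutrophil genes was present in every cDC sum. The 7 neutrophil genes Camp, Ngp, Ltf, S100a8, S100a9, Retnlg and Mmp8 stood at 34460, 33092 and 37787 CPM in cDCs, close to their level in T or NK cells (32942, 31294 and 43517). In barcodes of at most 100 UMIs they stood at 110744, 132144 and 166025 CPM. Taking all of them as free RNA gave an upper estimate of 31.1%, 25.04% and 22.8% of the UMIs in cDC sums. T or NK cells of the same libraries, which carried these genes at similar levels, are set beside some of the results below.

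The effect of CSD within cDCs was tested on the summed UMIs of the 3 libraries, for 3127 genes seen in over 15% of cDCs. No gene passed at an adjusted p under 0.05 (edgeR quasi-likelihood test, 0 of 3127, 0.0%), and DESeq2 called 1, Mgp. In simulated data the edgeR fit recovered 22% of 2-fold changes, so most changes of that size would go uncalled. At an unadjusted p under 0.05 edgeR gave 135 genes (4.32%), 59 higher in CSD (1.89%) and 76 lower (2.43%). Over all tested genes the median log2 fold change was -0.01. CSD lay above both HC libraries in 31.9% of the genes and below both in 37.9%, which is the background for every list below. The lone CSD library is assumed to vary as the 2 HC libraries do. The spread behind the p-values comes from the 2 HC pools alone, with 1 residual degree of freedom. That spread was moderated by a prior shared over genes, worth 7.02 degrees of freedom. The p-values thus do not measure how CSD pools vary.

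The 4 genes with the smallest p among those lower in CSD did not pass. Mgp, matrix Gla protein of fibroblasts and mural cells, stood at 368 and 643 CPM in the HC libraries and at 20.3 in CSD (256, 172 and 5 UMIs). Its log2 fold change was -4.55 (SE 0.54, edgeR adjusted p = 0.0915, DESeq2 adjusted p = 9.53e-05). T or NK cells showed the same pattern at 249, 361 and 29.8 CPM, and Mgp was the gene that edgeR called there (adjusted p = 0.0196). Barcodes of at most 100 UMIs held it at 1686, 1353 and 572 CPM. Fibroblast genes as a list of 11 summed to 704, 972 and 158 CPM in cDCs and to 529, 652 and 143 in T or NK cells, with Mgp the most abundant in HC and Ptgds in CSD. Col3a1, Igfbp2, Lum and Ogn were at 0 in CSD cDCs, and Col3a1 also in HC replicate 2. Their part in the result was not tested.

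Sparc, another matrix protein, stood at 108, 100.9 and 16.3 CPM (log2 fold change -2.65, SE 0.51, edgeR adjusted p = 0.654), and in T or NK cells at 75.9, 120.5 and 19.9 CPM. Cxcl2, a chemokine that attracts neutrophils, stood at 237, 306 and 89.4 CPM (-1.55, SE 0.31, edgeR adjusted p = 0.654). Barcodes of at most 100 UMIs held Cxcl2 at a near constant 486, 469 and 504 CPM, and T or NK cells at 99.0, 52.9 and 69.6. In cDCs, 3 cells held 56 of 165, 55 of 82 and 7 of 22 Cxcl2 UMIs, and 54 of 123, 18 of 45 and 18 of 46 cells had at least 1. Ctsd, the lysosomal protease cathepsin D, stood at 312, 288 and 142 CPM, with a log2 fold change of -1.06. Ctsd stood at 216, 228 and 113 CPM in class II B cells (-0.97, SE 0.32, edgeR adjusted p = 0.921) and at 541, 579 and 452 in T or NK cells. In all 4 of these genes the CSD value lay under both HC values, and the HC values lay close together in each but Mgp and Cxcl2.

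Among genes higher in CSD, Fkbp5, a co-chaperone of the glucocorticoid receptor that glucocorticoids induce, stood at 18.7, 22.4 and 97.5 CPM (log2 fold change 2.29, SE 0.44, edgeR adjusted p = 0.654). Fkbp5 was detected in 9.76% and 13.3% of HC cDCs and in 32.6% of CSD cDCs, 15.4% in all. It thus passed the filter of 15% of cDCs only through CSD, so its change is a description and not a test. T or NK cells held Fkbp5 at 27.6, 41.1 and 69.6 CPM and barcodes of at most 100 UMIs at 25.7, 26.3 and 69.7. Irf7, the interferon-induced transcription factor, stood at 109, 123 and 276 CPM (1.29, SE 0.25, edgeR adjusted p = 0.654). T or NK cells held Irf7 at 43.7, 58.8 and 81.6 CPM. Among CSD cDCs a single cell held 30 of the 68 Irf7 UMIs, and the top 3 held 52. AA467197 stood at 108, 119.6 and 232 CPM, Ifitm1, an interferon-induced transmembrane protein, at 37.3, 44.8 and 109.7, and Lrg1, a secreted glycoprotein of neutrophils and the acute phase, at 41.7, 86.0 and 167. Lrg1 in T or NK cells stood at 43.7, 91.1 and 179 CPM, Ifitm1 there at 27.6, 26.5 and 111 and AA467197 at 43.7, 55.8 and 71.6. Among CSD cDCs a single cell held 24 of the 57 AA467197 UMIs, and the top 3 held 35. Barcodes of at most 100 UMIs held Ifitm1 at 75.8, 79.4 and 349 CPM and Lrg1 at 146, 214 and 515. The log2 fold change, 1.06 for AA467197 and 1.47 for Ifitm1, ran from 0.33 to 1.51 and from 0.50 to 1.68 over 15 alternatives each. None of the 5 passed, although CSD was above both HC libraries in each.

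**Figure D4:**
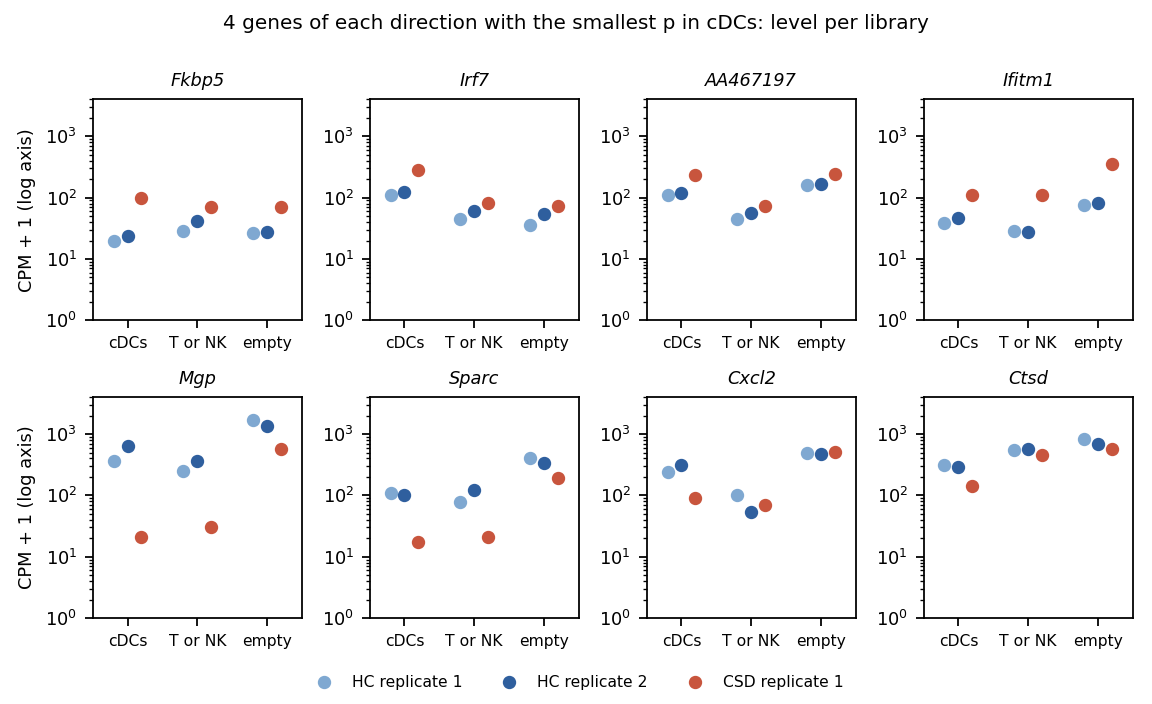
Level of 8 genes in cDCs, T or NK cells and barcodes of at most 100 UMIs (empty), 1 point per library, on a log axis of CPM plus 1: above, the 4 with the smallest p among genes higher in CSD, and below, the 4 among genes lower. Mgp stands at 368 and 643 CPM in HC cDCs and at 20.3 in CSD, with the same order in T or NK cells, and none of the 8 passed in edgeR.

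Branch genes were read through 2 lists, without the genes that chose the cells. Of 7 such cDC1 genes tested, in a list of 17, CSD was above both HC libraries in 4 and below both in 1, with a median log2 fold change of 0.38. Irf8 stood at 353, 497 and 573 CPM (0.48, SE 0.25), Naaa, a lysosomal amidase, at 184, 127 and 244 (0.61, SE 0.30) and Wdfy4, needed for cross-presentation, at 81.9, 56.1 and 118 (0.71, SE 0.37). The cDC1-like subcluster held 16 of 123, 5 of 45 and 12 of 46 cells, and its part in these values was not tested. With cells thinned to 500 UMIs a single gene of the list could be tested, and at -0.77 it lay in the opposite direction to this median. Thinned in this way, Irf8 was detected in 19 of 123, 9 of 45 and 3 of 46 cDCs, so its higher level in CSD was not seen in detection at equal UMIs per cell. Of 6 such cDC2 genes tested, in a list of 17, CSD was above both in 1 and below both in 3, with a median of -0.08. Tnip3 had a log2 fold change of -0.68 (SE 0.27) from the levels given above. Subcluster 3, which was cDC2-like, held 17, 15 and 2 cells, and its part was not tested either. Among genes that chose the cells, Ifi205 stood at 54.6, 52.3 and 97.5 CPM, and Clec10a, with 154, 247 and 183, had CSD between the HC values. No member of either list passed the adjusted test.

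Several chemokine genes differed between the HC libraries themselves. Ccl17 rested on 320, 560 and 163 UMIs, of which a single cell of HC replicate 2 held 357. Its level there was above both other libraries, and CSD lay between the HC values. Ccl22 followed the same order of HC libraries at 27.3, 198 and 16.3 CPM (19, 53 and 4 UMIs), and Il1b, the inflammatory cytokine, stood at 129, 344 and 85.3. Ccl4, an inflammatory chemokine, stood at 197, 538 and 232 CPM. Over 11 tested chemokines and cytokines, leaving out Ccl17, which chose cells, the median was -0.15, with CSD above both HC libraries in 2 and below both in 4. Over 7 mature migratory genes it was -0.02 (2 and 2), and over 4 chemokine receptors -0.49 (1 and 3). Gpr183, the oxysterol receptor that positions cDC2, stood at 58.9, 78.5 and 24.4 CPM (-1.41, SE 0.54, edgeR unadjusted p = 0.0309) and Ccr2, the receptor that brings cells from blood, at 280.1, 262 and 219.

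No presentation gene passed. Of 21 class II presentation genes 17 were tested, 13 of them not used to choose the cells. Of these 13, CSD was below both HC libraries in 9 (against 37.9% of all genes) and above both in 2, with a median of -0.23. Ciita had a log2 fold change of -0.28 (SE 0.43) from the levels given above. Ctss, which cuts the invariant chain, stood at 1455, 1424 and 1032 CPM (-0.46, SE 0.21). Lgmn, an endosomal protease, stood at 131, 82.2 and 28.4 CPM (-1.96, SE 0.54, edgeR unadjusted p = 0.0065). H2-DMb1 went the other way at 727, 759 and 817. The whole list, with the genes that chose the cells, had a median of -0.22 in cDCs, -0.58 over 8 genes in T or NK cells and -0.20 over 13 in class II B cells, comparisons that share these libraries. Of 17 class I genes, 9 had CSD above both HC libraries and 3 below both, with a median of 0.13. B2m, the light chain of class I, stood at 2364, 2448 and 2471 CPM.

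Uptake and sensing genes lay mostly under both HC values in CSD, and none passed. Of 11 tested uptake lectins and receptors that did not choose cells, in a list of 28, CSD was below both HC libraries in 9 and above both in 0, with a median of -0.36. Of 9 tested pattern recognition genes in a list of 27, it was below both in 6 and above both in 1, with a median of -0.31. Cd14, the lipopolysaccharide co-receptor, stood at 102, 93.4 and 28.4 CPM (-1.77, SE 0.45, edgeR unadjusted p = 0.00459). Costimulation and checkpoint genes had a median of -0.26 over 11 (CSD above both HC libraries in 2 and below both in 6), growth factor receptors -0.17 over 9 (1 and 4) and dendritic cell transcription factors 0.03 over 16 (4 and 4). Among the last, Spi1 (369, 400 and 378 CPM) and Id2 (473, 519 and 492) were level across libraries, while Rbpj, the Notch effector that cDC2 use, stood at 126, 112 and 56.9 (-1.07, SE 0.37).

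Genes of macrophages were also found in cDC sums. The border macrophage list of 15 genes summed to 8023, 3517 and 3276 CPM, with Apoe the most abundant and Folr2 and Gas6 at 0 in the last 2 libraries. Over its 5 tested genes that did not choose cells the median log2 fold change was -0.93. CSD was below both HC libraries in 4 of these and above both in 1. In T or NK cells the same list summed to 3577, 1737 and 1068 CPM. The part of macrophage RNA in the Ctsd, Lgmn and Cd14 values was not tested. Without subclusters 5 and 6, an alternative chosen after seeing the data, the median of the whole class II list was -0.15 in place of -0.22 and of the whole cDC2 list -0.38 in place of -0.08, and no gene passed.

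Interferon-stimulated genes were the list with most members at an unadjusted p under 0.05 in edgeR by count, but not by share of the members tested. That share was larger, for example, in the pattern recognition list (3 of 9, lower) and the monocyte list (3 of 9, higher). It was also larger in the microglia list (3 of 5, lower) and the red cell list (3 of 4, higher). Of 50 genes in the interferon list 26 were tested. By that measure 6 were higher in CSD and 0 lower, against 1.89% and 2.43% of all genes, and none passed the adjusted test. CSD lay above both HC libraries in 17 and below both in 5, with a median of 0.48. Ifitm3, which blocks viral entry, stood at 1872, 1925 and 2674 CPM (0.52, SE 0.19), Bst2 or tetherin at 198, 262 and 337 (0.61, SE 0.25) and Trim30a at 76.1, 59.8 and 130 (0.90, SE 0.34). Isg15, the ubiquitin-like modifier, stood at 129, 146 and 219 CPM (0.71, SE 0.26). Ifit3, a classical member of the same response, went the other way at 93.4, 33.6 and 28.4 CPM. The top 3 cells held 11.7%, 20.4% and 26.8% of the list's UMIs in the 3 libraries, and without subcluster 7, an alternative chosen after seeing the data, the median was 0.43. Over 16 alternatives the median ran from 0.05 to 0.66. In T or NK cells the median was 0.11 over 12 genes and in class II B cells 0.26 over 8.

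Immediate early genes, which switch on within minutes of stimulation, lay under both HC values in CSD in most members, and none passed. Of 18 tested in a list of 26, CSD lay below both HC libraries in 15 and above both in 1, with a median of -0.48. Junb stood at 659, 1002 and 484 CPM (-0.74, SE 0.28), Jun at 543, 740.0 and 370 (-0.75, SE 0.26) and Klf2 at 233, 299 and 150 (-0.77, SE 0.28), and these 3 were at an unadjusted p under 0.05 in edgeR. Fos stood at 1092, 1222 and 971 CPM (-0.22, SE 0.21). Dusp2, a phosphatase that limits MAP kinases, was the exception at 58.9, 63.5 and 134 CPM (1.16, SE 0.33). The HC libraries differed in this list too, with a median log2 ratio of 0.40 of HC replicate 2 over HC replicate 1 against 0.08 over all genes. In T or NK cells the median was -0.28 over 12 genes and in class II B cells -0.32 over 10.

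Glucocorticoid-responsive genes had no common direction. Of 15 tested in a list of 30, CSD was above both HC libraries in 4 and below both in 8, with a median of -0.22. Fkbp5 and Anxa1, the anti-inflammatory annexin (155, 146 and 240 CPM, 0.68, SE 0.25), were the members at an unadjusted p under 0.05 in edgeR. Fkbp5 passed the filter on share of cells only through CSD, so its value is a description. Tsc22d3, or Gilz, stood at 165, 194 and 126. Nr3c1, the glucocorticoid receptor itself, stood at 60.3, 71.0 and 28.4 CPM (-1.15, SE 0.50).

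Cell cycle genes had a median of 0.40 over 13 tested in a list of 33, with CSD above both HC libraries in 8 and below both in 2. Top2a, the topoisomerase of dividing cells, stood at 33.0, 41.1 and 77.2 CPM (1.12, SE 0.43), and the histone gene Hist1h2ap at 148, 22.4 and 394 (1.97, SE 0.60). In CSD, 3 of 46 cells held 75 of the 97 Hist1h2ap UMIs. Hist1h2ap passed in edgeR with a class II floor of 4%, with free RNA subtracted and with no filter on the share of cells. The top 3 cells held 39.2% of the list's UMIs in CSD, 23.8% in HC replicate 2 and 18.3% in HC replicate 1. Medians lay near 0 for the lists of 37 actin and motility genes (0.02), 20 lysosome and protease genes (-0.10) and 46 oxidative phosphorylation genes (0.00). Genes of red cells, 7 in the list, summed to 1921, 3819 and 5446 CPM in cDCs, with Hbb-bs the most abundant, and to 1919, 3321 and 5284 in T or NK cells.

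**Figure D5:**
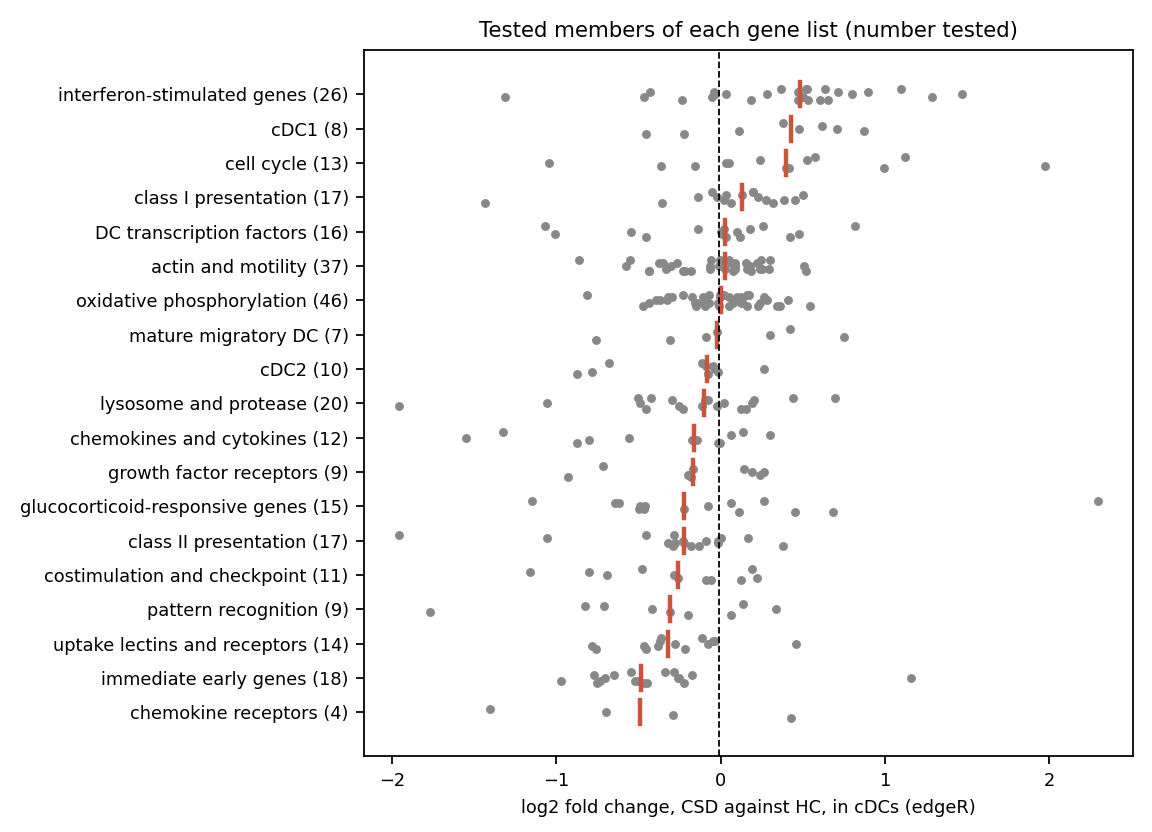
Log2 fold change of CSD against HC for each tested member of the gene lists in cDCs, with the median of each whole list, genes that chose the cells included. Interferon-stimulated genes have a median of 0.48 and immediate early genes -0.48, against -0.01 over all genes, and no member passed in edgeR.

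The CSD effect in cDCs was set against that in class II B cells of the same libraries (140, 149 and 120 cells) by an interaction test. Of 3166 genes 4 passed at an adjusted p under 0.05 in edgeR (0.126%), and 159 had an unadjusted p under 0.05 (5.02%). Ccl17 was 1 of the 4, but it chose cDCs, so its difference of -3.67 on the log2 scale is a description only: it stood at 8.63, 55.0 and 209 CPM in class II B cells, where a single CSD cell held 36 of 37 UMIs, and in cDCs of HC replicate 2 a single cell held 357 of 560. Cst3, cystatin C, an inhibitor of cathepsins that cDCs make in quantity, stood at 8467, 9601 and 10176 CPM in cDCs and at 1463, 1872 and 985 in class II B cells (0.91, SE 0.11, adjusted p = 0.000192). With free RNA subtracted, the Cst3 difference turned to -0.85 and did not pass (adjusted p of 1). Actb, beta-actin, stood at 5212, 10068 and 6352 CPM in cDCs and 4327, 8361 and 3447 in class II B cells (0.60, adjusted p = 0.00085). Lyz2, the lysozyme of myeloid cells, stood at 7147, 7833 and 5194 CPM in cDCs and 3943, 4711 and 4262 in class II B cells (-0.53, adjusted p = 0.0071). Of the 3 genes that did not choose cells, none passed in DESeq2, and with free RNA subtracted Actb passed while Lyz2 did not (edgeR adjusted p = 0.827).

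Against class II macrophages, 0 of 3248 genes passed in edgeR (0.0%), with 26 at an unadjusted p under 0.05 (0.8%), and DESeq2 called 0, with 47 at an unadjusted p under 0.05. That comparison rests on 53, 2 and 20 macrophages, so the macrophage profile of HC replicate 2 is that of a pair of cells and a difference would be hard to detect at this depth.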

How the data were processed

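Meninges of 3 pools of mice were profiled on the 10x Genomics Chromium. The authors aligned reads to mm10 and counted UMIs with Cell Ranger version 2, per the processing notes, and deposited raw counts of UMIs for 27998 genes in 2211840 barcodes of the 3 libraries, with no cell annotation and not corrected for free RNA. The library was taken from the number that ends each barcode. Cells were filtered (including the bounds on genes per cell that the study gives) and cDCs chosen as stated in the report, with doublets not removed. The members and lists were chosen with earlier results of these data known.

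UMIs of cDCs were summed per library and tested with edgeR 4.0.16 (TMM, quasi-likelihood, two-sided, 1 residual degree of freedom, Benjamini-Hochberg over all 3127 genes). Differences between cell types were interaction terms on 6 sums with library as a block. Cells were never used as replicates. Subclusters came from scanpy 1.11.5 (Leiden, resolution 1). DESeq2 1.42.0, Scrublet and other cut-offs were alternatives. Named genes were the 5 with the smallest p in each direction, the genes of the selection, members of the 19 lists of dendritic cell and pathway genes with the most UMIs, genes an interaction called, and the 5 highest ratios to other cells, and further list members were named after their values were seen. The fits were tested on simulated data with 200 changed genes. In cDCs edgeR recovered 99% of 8-fold and 22% of 2-fold changes and called 7 unchanged genes. DESeq2 recovered 83.8% and 7% and called 0 unchanged genes. The edgeR interaction fit with class II B cells recovered 86% and 9% and called 2. The fifth gene of those lower in CSD and a few other list members are not reported here. There were 13 list genes with no matching symbol, which were not used here.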

Additional observations from a re-analysis of the deposited data

Results flagged for a closer look

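The interaction test gave 4 genes in which the CSD effect differed between cDCs and class II B cells. The differences, CSD effect in cDCs minus that in class II B cells on the log2 scale, were -3.67 for Ccl17, 0.91 for Cst3, 0.60 for Actb and -0.53 for Lyz2. Ccl17 is among the genes that chose the cDCs, so its value is a description and not a test. Of the other 3, with free RNA subtracted, Cst3 turned to -0.85 (edgeR adjusted p of 1) and Lyz2 did not pass, and in DESeq2 none of them passed. For Ccl17, 357 of 560 UMIs of HC replicate 2 cDCs lay in 1 cell, and 36 of 37 UMIs of CSD class II B cells lay in 1 cell. Actb stood at 26047 CPM in barcodes of at most 100 UMIs of HC replicate 2, against 8482 in HC replicate 1 and 11780 in CSD replicate 1, and it was highest in that library in both cell types. The part of these values in the differences was not tested.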

How the results depend on the processing

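The CSD minus HC difference in cDC share stayed negative under each definition, between -2.28 points with at least 1000 UMIs and -1.33 with at least 3 dendritic cell genes, and ran from -3.06 to -0.97 as each HC replicate was left out. The count of genes that passed in cDCs, 0 as reported, became 1 without TMM, with DESeq2, with a class II floor of 1%, with a macrophage ceiling of 0.1%, with at least 1000 UMIs, without Scrublet-marked cells and with free RNA subtracted. It became 3 with a filter of at least 10 UMIs, 9 with a class II floor of 4% and 13 with no filter on the share of cells. The single gene was Mgp in each of these but the last, where it was Hist1h2ap. The count stayed 0 with at least 3 dendritic cell genes, with cells thinned to 500 UMIs, and, in alternatives chosen after seeing the data, without subclusters 5 and 6 or without subcluster 7. The 9 genes were Hist1h2ap, Mgp, Apoe, Hbb-bs, Irf7, Scgb1c1, AA467197, Il1b and Lyz2. The 13 included Mgp, Serpina3g, Hist1h2ap, Retnla, Cxcl9, Fkbp5, Sparc and Cxcl2. List members that passed numbered 0 as reported, 1 in the settings that gave 1 gene, 2 with at least 10 UMIs and 6 both with a class II floor of 4% and with no filter.

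Of the 4 genes that differed from class II B cells, 2 passed with free RNA subtracted and 1 with DESeq2, and the Cst3 difference turned from 0.91 to -0.85 (edgeR adjusted p of 1). Resolutions of 0.5 and 2 gave 4 and 13 subclusters in place of 7. Median changes of the immediate early list ran from -0.65 to -0.28, of the interferon list from 0.05 to 0.66, of the class II list from -0.35 to -0.15, of the uptake list from -0.39 to -0.03 and of the cDC1 list from -0.77 to 0.63 over 16 alternatives each, where -0.77 is a single gene tested with cells thinned to 500 UMIs. Those of the pattern recognition list ran from -0.40 to -0.09 over 15. Mgp ran from -8.65 to -3.82 and passed in 9 of 15. Leaving out a library leaves no residual degree of freedom, so that gives values with no test. No paired analysis was possible because the labels link no HC pool to the CSD pool. Genes seen in 15% or fewer of cDCs, such as Flt3 and Xcr1, were outside the reported test.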

Other observations

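Genes of other blood cells were also found in cDC sums. Monocyte genes, 11 in the list, summed to 1899 and 2317 CPM in the HC libraries and to 2877 in CSD. The monocyte list was also highest in CSD in T or NK cells (2451, 2472 and 3217 CPM). In barcodes of at most 100 UMIs it summed to 4322, 5182 and 7201 CPM. Basophil or mast cell genes, 9 in the list, summed to 270.1, 243 and 329 CPM in cDCs in the same order. T cell genes in cDCs summed to 237, 497 and 362 CPM and B cell genes to 384, 583 and 305. Genes of olfactory neurons, which do not lie in the meninges, summed to 283, 377 and 224 CPM.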
